A study of Mus musculus with 24 samples.

Results

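Keratins are the intermediate filament proteins of epithelial cells. A type I keratin pairs with a type II keratin to form the filament, and the pair changes with the kind of epithelium: Krt8 with Krt18 (and Krt19) in simple, single-layered epithelia, Krt5 with Krt14 in the basal layer of epidermis, Krt1 with Krt10 in the layers above it, and further sets in the hair follicle. The epithelia that line the cochlear duct, including supporting cells, are known to carry simple keratins. Epidermal and hair keratins are best known from skin, without all being limited to it.

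Keratin genes were taken as all genes whose single symbol starts with Krt and a number, without the keratin-associated genes, and for each gene the probe set with the highest mean log2 signal was kept. They numbered 48 of the 18194 genes with a probe set of their own on the array, with 61 probe sets in all. In GRCm38.p6, 24 lie on chromosome 11, from 99232761 to 100269951, and 24 on chromosome 15, from 101348315 to 102032026. By their known sites they fell into 3 simple keratins (Krt8, Krt18, Krt19), 3 other simple keratins, 3 basal and 5 suprabasal epidermal keratins, 4 wound and nail keratins, 9 of the hair follicle sheath, 12 of the hair shaft, 5 of mucosa and cornea, and 4 that were not classed.

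The groups were cochleae of α9−/− mice, which lack the α9 nicotinic receptor subunit in every tissue through constitutive deletion of Chrna9, and of age-matched wild type mice, at P3, P7, P13 and P60. All were of the hybrid strain 129S6 x CBA/CaJ, backcrossed to CBA/CaJ, and received no treatment. Total RNA of 3 pools per genotype and age was hybridized to 24 arrays. The series gives 3 to 5 mice per pool, while the study's methods count cochleae and give more of them at P3 and P7 than at P13 and P60.

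The deposited values are log2 signals. Of the 48 keratins, 38 had a mean below 6.65, the median of all probe sets, so most lie in the dim part of the scale, and signals of different probe sets are not compared here. Of the markers of the organ of Corti, 5 of 9 measured for hair cells (Myo7a, Myo6, Otof, Gfi1 and Pvalb) and 12 of 13 for supporting cells had a mean above that median, and Slc26a5, Pou4f3, Atoh1 and Espn of hair cells and Prox1 of supporting cells were below it. On 5 arrays (P3 α9−/− pool 2, P3 wild type pool 1, P13 wild type pools 1 and 2, P60 wild type pool 1) the Gapdh control read 6.30 to 7.69 log2 units lower at the 5′ than at the 3′ end of the transcript, against at most 2.43 elsewhere. The map of all keratins shows the families and pools described next.

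**Figure D1:**
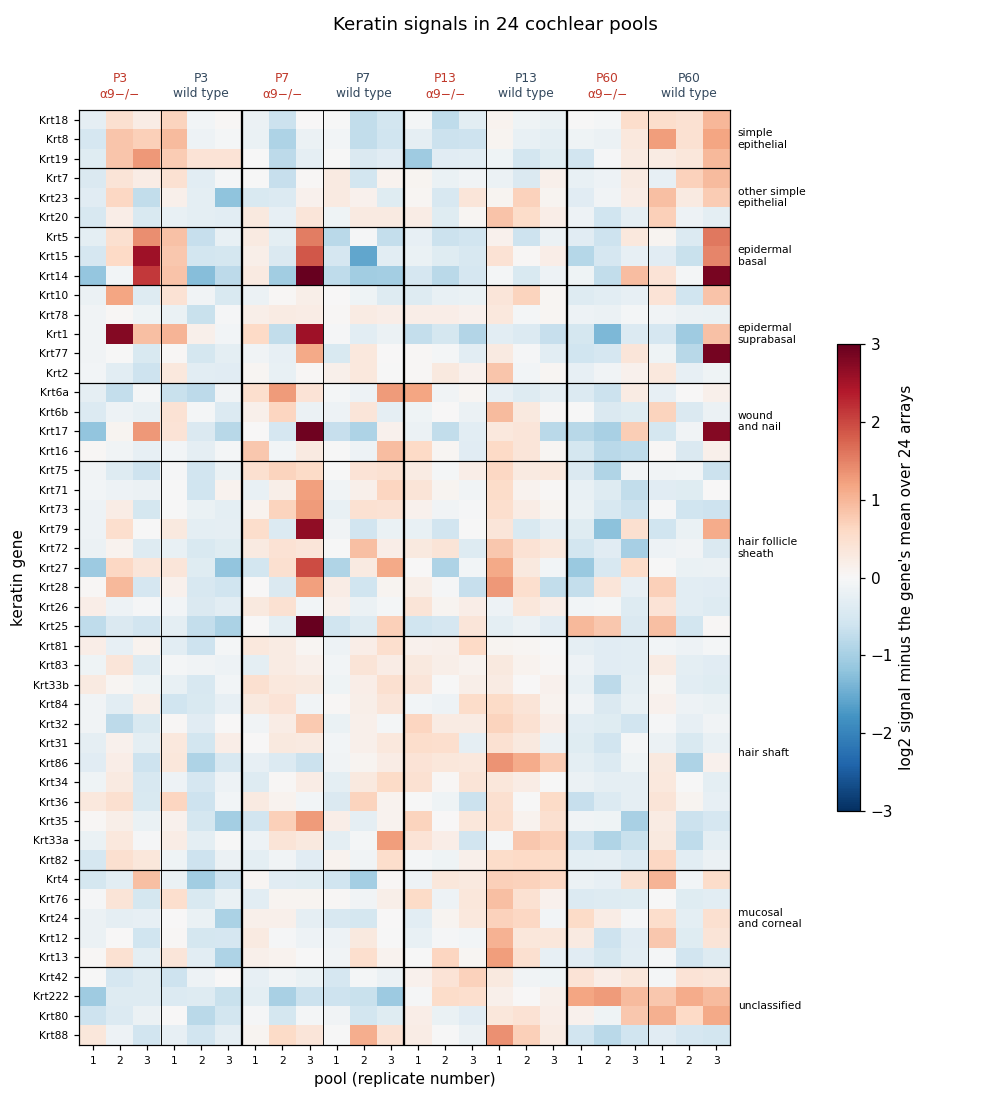
Deposited log2 signal of each of 48 keratin genes (rows, by family) in each of 24 pools (columns, by age and genotype), minus the gene's mean over the 24 arrays, with the colour scale ending at 3 on either side of 0. Dark red fields include Krt14, Krt17, Krt25, Krt79 and Krt1 in P7 α9−/− pool 3, Krt14, Krt77 and Krt17 in P60 wild type pool 3, Krt1 in P3 α9−/− pool 2 and Krt15 in P3 α9−/− pool 3.

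Promoter sequence was looked at because families of keratins moved together in single pools or with age. RefSeq (GRCm38.p6) held 33 promoter windows for 32 of the 48 genes. The last 60 bases before an annotated start are shown for the simple pair Krt8 and Krt18 and for 3 keratins high in single pools. These were Krt10 of suprabasal epidermis and Krt25 and Krt71 of the hair follicle sheath. The Krt10 window lies inside the annotated span of that gene, 99385254 to 99397449. Capitals mark the letters TATAAA, the core of the TATA box.
Krt8 (chr15:102004343-102004402, minus strand): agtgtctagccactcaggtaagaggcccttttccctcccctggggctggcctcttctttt
Krt18 (chr15:102028156-102028215, plus strand): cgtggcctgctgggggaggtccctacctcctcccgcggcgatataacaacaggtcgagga
Krt10 (chr11:99389365-99389424, minus strand): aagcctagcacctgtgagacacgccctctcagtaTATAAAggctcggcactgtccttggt
Krt25 (chr11:99322952-99323011, minus strand): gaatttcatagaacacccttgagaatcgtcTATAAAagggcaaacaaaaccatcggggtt
Krt71 (chr15:101743098-101743157, minus strand): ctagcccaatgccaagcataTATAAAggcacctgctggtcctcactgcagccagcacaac

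TATAAA began 26 bases before the start in Krt10, 30 in Krt25 and 40 in Krt71, and was not in these windows of Krt8 and Krt18. Read on the sense strand of the last 50 bases, it stood in 14 of 33 keratin windows and in 2.63% of all 32851 windows. By family these were 6 of 9 hair follicle sheath windows (Krt71, Krt73 and Krt25 to Krt28) and 4 of 7 hair shaft windows (Krt31, Krt32, Krt33b and Krt34). It also stood in 2 of 5 mucosal and corneal, 1 of 4 suprabasal (Krt10) and 1 of 3 other simple windows. The 2 basal (Krt5 and Krt14), 2 simple and 1 unclassed windows lacked it. The annotated start of Krt14 may not be its main start, so its window cannot show whether its promoter has these letters. GGGCGG, the GC box, searched on both strands of 250 bases, was found in 2 keratin windows (6.06%), those of Krt7 and Krt75, and in 32.7% of all windows. TGANTCA, the AP-1 site, was found on both strands of 250 bases in 6.06% of keratin windows and in 6.75% of all. These matches are a description of letters only.

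Of the 3 simple keratins, 2 fell at P7 against P3 and all 3 rose at P60 against P13. On arrays normalized together, Krt8 fell by 0.83 ± 0.24 (SE) and Krt19 by 0.92 ± 0.24 on the log2 scale at P7 against P3 (limma, adjusted p = 0.0456 and 0.0241). At P60 against P13 Krt8 rose by 1.13 ± 0.24, Krt18 by 0.97 ± 0.19 and Krt19 by 0.87 ± 0.24 (adjusted p = 0.0022, 0.000948 and 0.0131, 6 pools per age). None of the 3 passed at P60 against P3, with differences of 0.18, 0.23 and −0.40 and an SE of 0.24, 0.19 and 0.24. In bulk cochlea, fewer cells with a keratin and less of its RNA per cell cannot be told apart.

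The pools behind these values spread by about as much as the age steps. Krt8 (gene ID 16691), the type II partner of Krt18, read 8.14, 9.48 and 9.36 in α9−/− and 9.60, 8.50 and 8.60 in wild type pools at P3. At P7 it read 8.46, 7.72 and 8.47 in α9−/− and 8.58, 7.92 and 8.06 in wild type pools, and at P13 8.39, 8.01 and 8.04 in α9−/− and 8.73, 8.44 and 8.37 in wild type pools. At P60 it read 8.53, 8.48 and 8.98 in α9−/− and 9.90, 9.12 and 9.83 in wild type pools. P3 and P7 pools overlapped through the low α9−/− pool 1 and wild type pool 2 of P3, and P3 wild type pool 3 lay just above the P7 range. All 3 wild type pools of P60 were above all 12 pools of P7 and P13, and the 3 α9−/− pools of P60 lay among or just above them.

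Krt18 (gene ID 16668), the type I partner, read 8.86, 8.82 and 9.40 in α9−/− and 9.40, 9.34 and 9.87 in wild type pools at P60. At P13 it read 8.82, 8.12 and 8.55 in α9−/− and 8.98, 8.74 and 8.68 in wild type pools. After the arrays were normalized together, its 6 pools of P60 lay above its 6 pools of P13, which held for 4.83% of all genes. At P7 against P3 its fall of 0.61 ± 0.19 did not pass the test (adjusted p = 0.0617).

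Krt19 (gene ID 16669), a small type I keratin without a tail domain, read 6.59, 7.79 and 8.26 in α9−/− and 7.71, 7.37 and 7.36 in wild type pools at P3. At P7 it read 6.95, 6.16 and 6.69 in α9−/− and 6.94, 6.51 and 6.62 in wild type pools. The low value at P3 was again α9−/− pool 1, which lay within the P7 range.

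**Figure D2:**
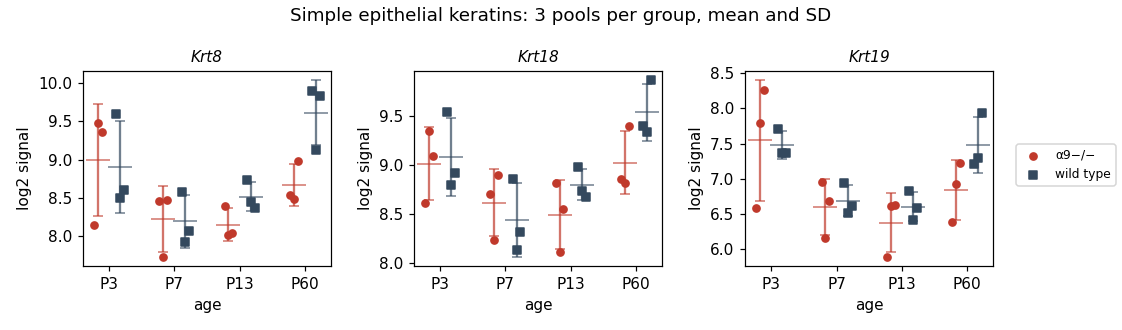
Deposited log2 signal (y) of Krt8, Krt18 and Krt19 by age (x), with 1 point per pool and the mean and SD of 3 pools for α9−/− (left of each pair) and wild type (right). The group means of all 3 genes are lower at P7 and P13 than at P3 and P60, and the P60 wild type pools of Krt8 lie between 9.12 and 9.90.

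All 3 probe sets of Krt8 gave the fall at P7 (−0.83, −0.84 and −1.23) and the rise at P60 (1.13, 1.12 and 1.58). Those beside the one used here can cross-hybridize with relatives. The rise at P60 was 0.83 in α9−/− and 1.42 in wild type pools for Krt8, and 0.86 and 1.07 for Krt18, with no passing difference between genotypes (adjusted p = 1 for both). The fall of Krt8 and Krt19 at P7 was lost without the 5 arrays whose Gapdh 5′ signal was low (−0.54 and −0.80, adjusted p = 0.164 and 0.0914), while the rise of Krt8 and Krt18 at P60 was not (1.17 and 1.10, adjusted p = 0.00706 and 0.00345). Those arrays held the highest Krt8 of both P3 groups and of P13 and P60 wild type. The rise of Krt19 lost its call there (0.96, adjusted p = 0.0528). Single pools also decided the fall at P7: the call of Krt8 was lost when any one of P3 α9−/− pools 2 and 3, P3 wild type pools 1 and 3, the 3 P7 α9−/− pools and P7 wild type pools 2 and 3 was left out (−0.90 to −0.65), and that of Krt19 without P3 α9−/− pool 2 or 3, P3 wild type pool 1, P7 α9−/− pool 2 or P7 wild type pool 2 or 3 (−0.91 to −0.75).

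Beside the P60 rise, 6 of 14 genes of desmosomes and keratin linkers rose and none fell (median 0.58, against −0.06 over all genes, of which 12.1% rose and 14.5% fell), among them desmoplakin (Dsp, 1.16 ± 0.19), which anchors keratin filaments at desmosomes, and Perp (0.94 ± 0.18), Dst (0.99 ± 0.17) and Itgb4 (1.26 ± 0.42). At P7 against P3, 2 of the 14 fell and none rose, against 5.15% and 3.08% of all genes, the hemidesmosome genes Dst (−0.78 ± 0.17) and Itga6 (−0.73 ± 0.14). Of 13 supporting cell markers, 4 rose and 2 fell at P60 against P13 (12.1% and 14.5% of all genes), and 0 rose and 4 fell at P7 against P3 (3.08% and 5.15%). Of 9 hair cell markers, 2 rose and 0 fell at P60 against P13, and 0 rose and 1 fell at P7 against P3, beside the same shares of all genes. Skeletal muscle and cerebellar markers (8 and 8 genes) all rose at P60 against P13, and the part of other tissue in the keratin values was not tested.

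Across all 48 keratins few passed between ages. At P7 against P3, 2 rose and 2 fell, against 3.08% and 5.15% of all genes. At P13 against P7, 2 rose and none fell, against 12.8% and 8.32% of all genes. At P60 against P13, 5 rose and 3 fell, against 12.1% and 14.5%, and at P60 against P3, 4 rose and none fell, against 15.7% and 17.2%. The keratins were thus called about as often as all genes at P7 against P3 and less often in the other comparisons, a difference that was not tested. The split at P60 against P13 depends on the scale: on the deposited values, whose medians differ between ages, 5 rose and 17 fell, and with each array centred on its median 5 rose and 4 fell. At P7 against P3 the deposited values gave 5 higher and 1 lower, and the centred ones 2 and 1.

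Krt222 was the one keratin called with a log2 difference of at least 1.5, at P60 against P3. By that rule 1.2% of all genes were called at P7 against P3, 2.39% at P13 against P7, 3.64% at P60 against P13 and 5.77% at P60 against P3. It is a keratin-like gene (gene ID 268481, chromosome 11, 99232761 to 99244147). Its signal was 5.82, 6.49 and 6.5 in α9−/− and 6.47, 6.48 and 6.20 in wild type pools at P3, and 6.58, 5.91 and 6.23 in α9−/− and 6.25, 6.21 and 5.79 in wild type pools at P7. It was 6.83, 7.42 and 7.38 in α9−/− and 7.04, 6.88 and 7.02 in wild type pools at P13, and 8.05, 8.15 and 7.83 in α9−/− and 7.68, 8.0 and 7.82 in wild type pools at P60. The pools of P13 lay above those of P7, as for 8.65% of all genes, and those of P60 above those of P13, with both genotypes together at each age. The differences were 0.74 ± 0.15 at P13 against P7, 1.07 ± 0.15 at P60 against P13 and 1.55 ± 0.15 at P60 against P3 (limma, adjusted p = 0.00246, 5.7e-05 and 3.08e-07). Its second probe set moved the same way by 0.96, 1.46 and 2.20.

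Krt80 (gene ID 74127), a type II keratin found at desmosomes near the cell edge, rose by 0.70 ± 0.19 at P60 against P13 and by 0.95 ± 0.19 at P60 against P3 (adjusted p = 0.011 and 0.000686). At P60 it read 6.99, 6.74 and 7.67 in α9−/− and 7.93, 7.45 and 7.99 in wild type pools, and at P3 6.23, 6.44 and 6.69 in α9−/− and 6.88, 6.06 and 6.32 in wild type pools. P60 α9−/− pool 2 overlapped the P3 wild type pools, and the other P60 pools lay above all P3 pools.

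The other keratins that passed between ages moved by less than 1 log2 unit and most had a dim signal. The hair keratin Krt86 rose by 0.75 ± 0.20 at P13 against P7 and fell by 0.68 ± 0.20 at P60 against P13 (adjusted p = 0.0136 and 0.0202). At P13 it read 5.49, 5.42 and 5.40 in α9−/− and 6.42, 6.20 and 5.83 in wild type pools, so the wild type pools were the high ones. Krt88 fell by 0.75 ± 0.21 at P60 against P13 (adjusted p = 0.0154), with 6.61, 6.39 and 6.22 in α9−/− and 7.76, 7.11 and 6.64 in wild type pools at P13. Krt75 of the companion layer of the hair follicle rose by 0.68 ± 0.15 at P7 against P3 and fell by 0.44 ± 0.15 at P60 against P13 (adjusted p = 0.0114 and 0.0479). Krt6a, a keratin of wounds and nails, rose by 0.90 ± 0.26 at P7 against P3 (adjusted p = 0.048), although its 2 other probe sets gave −0.20 and 0.12. Krt42 rose by 0.57 ± 0.16 and Krt24 by 0.52 ± 0.19 at P60 against P3 (adjusted p = 0.0107 and 0.0471), and the second probe set of Krt42 gave −0.18. Krt88 lost its call without P13 wild type pool 1 (−0.59, adjusted p = 0.0503) and without the arrays whose Gapdh 5′ signal was low (−0.49, adjusted p = 0.195), and the fall of Krt86 without P60 wild type pool 2 or P13 wild type pool 1 (−0.51 and −0.61, adjusted p = 0.0643 and 0.0553). Leaving out single pools ended the call of Krt6a in 9 of 12 cases, of Krt75 at P60 in 8 and of Krt24 in 8. Without the 3 pools of highest Krt14 signal, an alternative added after the data were seen, none of the 4 calls at P7 against P3 remained, and Krt75 at P60 against P13 and Krt42 and Krt24 at P60 against P3 were lost too.

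**Figure D3:**
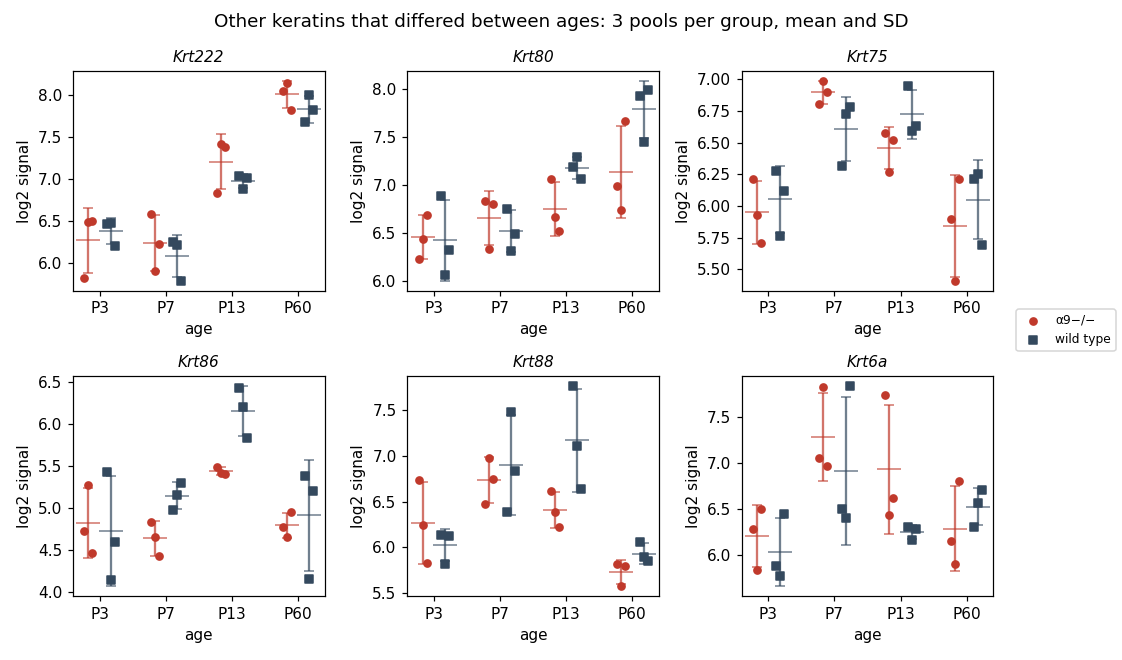
Deposited log2 signal (y) of 6 other keratins that passed between ages (x), with 1 point per pool and the mean and SD of 3 pools for α9−/− (left of each pair) and wild type (right). Krt222 rises at P13 and again at P60 in both genotypes, with P60 pools between 7.68 and 8.15, and Krt86 is highest in the wild type pools of P13, between 5.83 and 6.42.

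No keratin passed between genotypes. Of the 48, 20 were among the 40% of probe sets of highest variance and were tested at each age, as 36.2% of all genes were. With limma and an adjusted p under 0.05, 0 keratins passed at any of the 4 ages, while of all genes tested 0% passed at P3, 0% at P7, 8.76% at P13 and 0% at P60. The study's own lists differ from this and hold genes at all 4 ages. They include Krt14, by the probe set used here, as higher in α9−/− cochleae at P7. The cause of this difference was not tested. At an unadjusted p under 0.05 the keratins numbered 0, 0, 2 and 1 of 20, against 1.75%, 1.48%, 37.3% and 6.1% of all probe sets tested. The median keratin difference was 0.23, 0.36, −0.36 and −0.47 at the 4 ages, against 0.02, 0.00, −0.27 and −0.11 over all genes tested. No keratin's age step differed between genotypes either, in 3 interaction terms over adjacent ages (0 called, against 0%, 0.0055% and 0% of all genes, with 2, 0 and 0 of 48 keratins at an unadjusted p under 0.05, against 1.37%, 8.89% and 4% of all probe sets).

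At P13, α9−/− pools lay below wild type pools without overlap for 10 keratins and above them for 2, against 27.7% and 6.72% of all genes. Among the 10 were Krt10, with 7.84, 8.0 and 8.01 in α9−/− and 8.59, 8.88 and 8.28 in wild type pools (difference −0.64 ± 0.20, adjusted p = 0.103 over all probe sets, since it lay outside the variance limit), and Krt15 and Krt86 (−0.56 ± 0.24 and −0.71 ± 0.25, adjusted p = 0.134 and 0.0888). P13 wild type pools 1 and 2 were arrays whose Gapdh 5′ signal was low. At P60 they lay below for 7 and above for 0, against 8.23% and 1.49%, and Krt8 was one of the 7, with a mean of 8.66 ± 0.28 in α9−/− and 9.62 ± 0.43 in wild type pools (SD, n = 3 each; difference −0.96 ± 0.38, adjusted p = 0.776). At P3 no keratin was without overlap (3.34% higher and 1.85% lower among all genes), and at P7 Krt75 was higher and Krt86 lower (2.03% and 2.15%).

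No epidermal keratin passed between ages or genotypes, and their highest values came in single pools. Krt14 (gene ID 16664), the type I keratin of basal epidermis, read 4.31, 5.38 and 7.59 in α9−/− and 6.32, 4.18 and 4.67 in wild type pools at P3, and 5.73, 4.42 and 8.55 in α9−/− and 4.70, 4.42 and 4.44 in wild type pools at P7. At P13 it read 4.96, 4.66 and 4.95 in α9−/− and 5.41, 5.00 and 5.31 in wild type pools, and at P60 5.32, 4.72 and 6.39 in α9−/− and 5.88, 5.40 and 8.31 in wild type pools. Pool 3 of P3 α9−/−, pool 3 of P7 α9−/− and pool 3 of P60 wild type stood 2.74, 3.48 and 2.67 log2 units above the mean of the other 2 pools of their group. P3 wild type pool 1 was also above its group, at 6.32 for Krt14 and 7.53 for Krt5. A second probe set of Krt14 gave 2.70, 2.76 and 2.76 for the same 3 gaps, and its dimmest one 0.55, 0.24 and 0.29. Krt14, Krt17, Krt25 and the other hair keratins named here were chosen after their values were seen.

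The group differences followed these pools. Krt14 differed by 1.71 ± 0.91 at P7 (α9−/− 6.23 ± 2.11, wild type 4.52 ± 0.16, SD, n = 3 each) and by −1.05 ± 0.76 at P60 (limma, adjusted p = 1 and 0.794). Without pool 3 of α9−/− the P7 difference was 0.55, and at P3 it turned to −0.21 (all pools, 0.70), while without pool 3 of wild type the P60 difference was −0.16. Krt77, a suprabasal keratin, was −0.89 at P60 and 0.23 without that pool.

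Krt5 (gene ID 110308), the type II partner of Krt14, read 6.37, 7.13 and 8.05 in α9−/− and 7.53, 5.96 and 6.42 in wild type pools at P3, 6.93, 6.35 and 8.20 in α9−/− and 5.85, 6.63 and 5.94 in wild type pools at P7, and 6.32, 6.04 and 6.98 in α9−/− and 6.73, 6.24 and 8.23 in wild type pools at P60. Its 6 pools of P13 kept to 6.01 to 6.79. Krt15, a further basal keratin, reached 8.24, 7.55 and 7.15 in the same 3 pools. Over the 24 arrays Krt5 and Krt14 went together with a Pearson r of 0.90 (Spearman 0.70), and with 0.91 for deviations from the group means, and r was 0.82 without the 2 arrays farthest from the median of Krt5. Krt8 and Krt18 had an r of 0.94 (Spearman 0.97), 0.86 for deviations and 0.94 without the 2 farthest arrays. Krt1 and Krt10 had 0.58 (Spearman 0.46), 0.60 and 0.39. Keratins that are not partners also went together, Krt8 and Krt14 with 0.63 (Spearman 0.73), 0.68 and 0.56, and Krt18 and Krt5 with 0.64 (Spearman 0.66), 0.70 and 0.50. The points of these correlations share arrays, pools and normalization, and no test is attached.

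The suprabasal keratins were high in other pools as well. Krt1 (gene ID 16678) read 5.74, 8.58 and 6.75 in α9−/− and 6.86, 5.98 and 5.75 in wild type pools at P3, and 6.44, 5.10 and 8.38 in α9−/− and 5.80, 5.52 and 5.67 in wild type pools at P7. Its partner Krt10 was highest, at 9.40, in the P3 α9−/− pool 2 where Krt1 reached 8.58, and next highest, at 9.06, in P60 wild type pool 3. In P7 α9−/− pool 3, where Krt1 read 8.38, Krt10 read 8.39, below P13 wild type pools 1 and 2 (8.59 and 8.88). P3 α9−/− pool 2 and these 2 P13 pools were arrays whose Gapdh 5′ signal was low. Krt77 read 5.00, 5.09 and 5.96 in α9−/− and 5.47, 4.77 and 8.47 in wild type pools at P60, and no other array of the 24 exceeded 6.73. Krt78 kept to 5.63 to 6.62 over all 24 arrays.

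**Figure D4:**
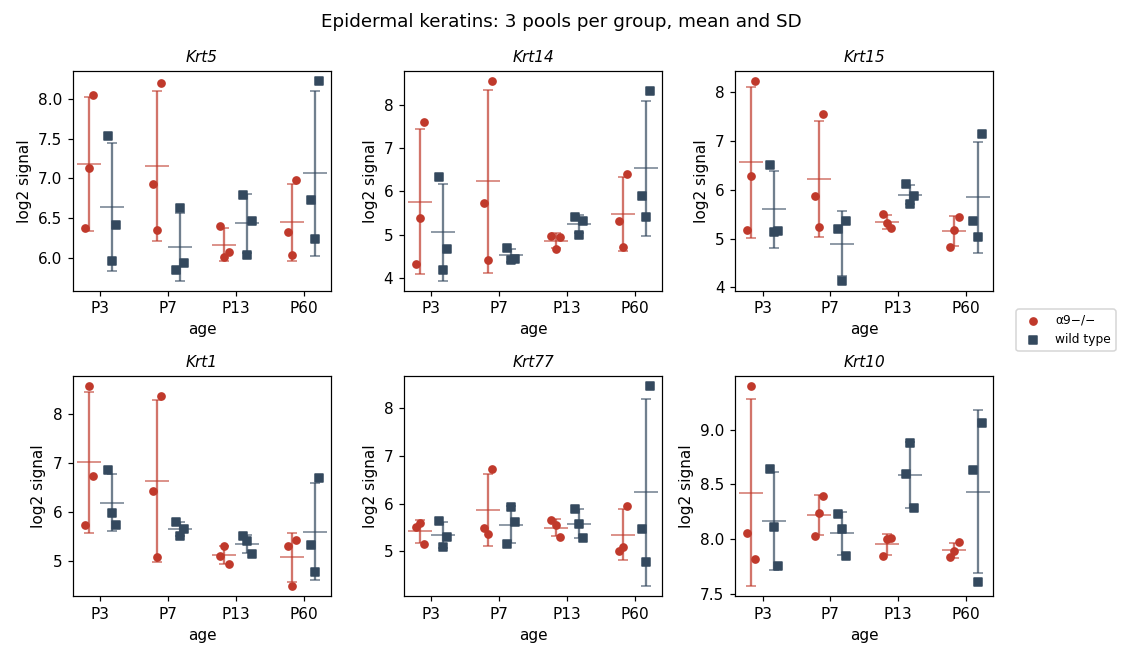
Deposited log2 signal (y) of 6 epidermal keratins by age (x), with 1 point per pool and the mean and SD of 3 pools for α9−/− (left of each pair) and wild type (right). Krt5, Krt14 and Krt15 each have 1 pool above the rest of its group at P3 and P7 in α9−/− and at P3 and P60 in wild type, Krt1 is high in a different P3 α9−/− pool, and P13 shows no such pool.

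The pools that were high in epidermal keratins differed in what came with them. They were picked by their keratin values, so part of any excess of keratins over all genes follows from that choice. In P7 α9−/− pool 3, 12 of 48 keratins exceeded the mean of the other 2 pools by more than 1 log2 unit, against 0.638% of all genes. Besides basal keratins they included hair follicle sheath keratins: Krt25 read 7.92, with 3.88 and 3.59 in the other α9−/− pools, Krt79 8.03, with 5.89 and 4.95, and Krt71 7.50, with 6.05 and 6.45. Krt17 read 7.10. In P60 wild type pool 3, 7 keratins exceeded that limit, against 5.99% of all genes, Krt17 among them at 6.93, whereas Krt25 was at 3.92. In P3 α9−/− pool 3, 6 did, against 3.25%, and in P3 α9−/− pool 2, 4 did, against 4.22%. P3 wild type pool 1, an array whose Gapdh 5′ signal was low, had 8, against 6.19%, and P7 wild type pool 3 had 5, against 0.665%.

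Genes of the cornified envelope and keratinocytes, 28 measured of 32 listed, were read in the same pools. In P7 α9−/− pool 3, 11 of 28 stood more than 1 log2 unit above the mean of the other 2 pools, against 0.638% of all genes. In P60 wild type pool 3 there were 14 of 28, against 5.99%. P3 α9−/− pool 2 had 7 and P3 α9−/− pool 3 had 3, against 4.22% and 3.25%. P3 wild type pool 1 and P13 wild type pool 1 had 4 each, against 6.19% and 1.96%. Filaggrin (Flg) read 6.28, 5.69 and 6.70 in P7 α9−/− pool 3, P60 wild type pool 3 and P3 α9−/− pool 2 and 2.57 in P3 α9−/− pool 3, and at most 3.62 in the other 20 arrays. The mean centred score of the list ranged from −0.25 to 0.66 in α9−/− and from −0.26 to −0.17 in wild type pools at P7, and from −0.08 to 0.22 in α9−/− and from −0.07 to 1.11 in wild type pools at P60. No member passed between genotypes at any age (14 tested), against 8.76% of all genes at P13 and 0% at the other ages.

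P3 α9−/− pool 3, high in Krt5, Krt14 and Krt15 but not in filaggrin, was the highest of all 24 in the list of middle ear and airway mucosa markers (centred score 1.18). There the mucin Muc5b read 10.02, with 6.78 and 6.35 in the other 2 α9−/− pools of that age, Reg3g 10.96, with 7.91 and 7.13, and Tff2 8.58, with 6.07 and 5.61. Krt4, a mucosal keratin, read 6.59, with 5.17 and 5.39. Of the 17 markers measured, Scgb1a1, Scgb3a1, Scgb3a2, Dcpp1, Tekt1 and Rsph1 did not exceed both other α9−/− pools there. P3 wild type pool 3 was also high in Muc5b (8.59) and Dcpp3 (11.51), with a score of −0.04 for the list. P7 α9−/− pool 3 had −0.39 for that list and P60 wild type pool 3 had 0.81. The part of other tissue in these keratin values was not tested.

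Setting simple against skin keratins in each array put both patterns on 1 scale. Every gene was centred on its own mean over 24 arrays after joint normalization, and the mean of 8 skin keratins (Krt5, Krt14, Krt15, Krt1, Krt2, Krt10, Krt77, Krt78) was subtracted from that of Krt8, Krt18 and Krt19. The contrast was −0.05, 0.09 and 0.07 in α9−/− and 0.28, 0.45 and 0.46 in wild type pools at P3, and −0.33, −0.36 and −1.47 in α9−/− and 0.19, −0.25 and −0.18 in wild type pools at P7. At P13 it was −0.26, −0.40 and −0.11 in α9−/− and −0.11, −0.17 and −0.24 in wild type pools, and at P60 0.16, 0.42 and 0.31 in α9−/− and 0.74, 0.90 and −0.17 in wild type pools. The genotypes did not overlap at P3 and P7, where α9−/− pools were lower, and overlapped at P13 and P60. With the median over genes, or with hair and wound keratins added to the skin list, the genotypes overlapped at P3 and at P7 as well, and on the deposited values they overlapped at P7 (−0.28 in α9−/− pool 1 and −0.37 in wild type pool 2).

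**Figure D5:**
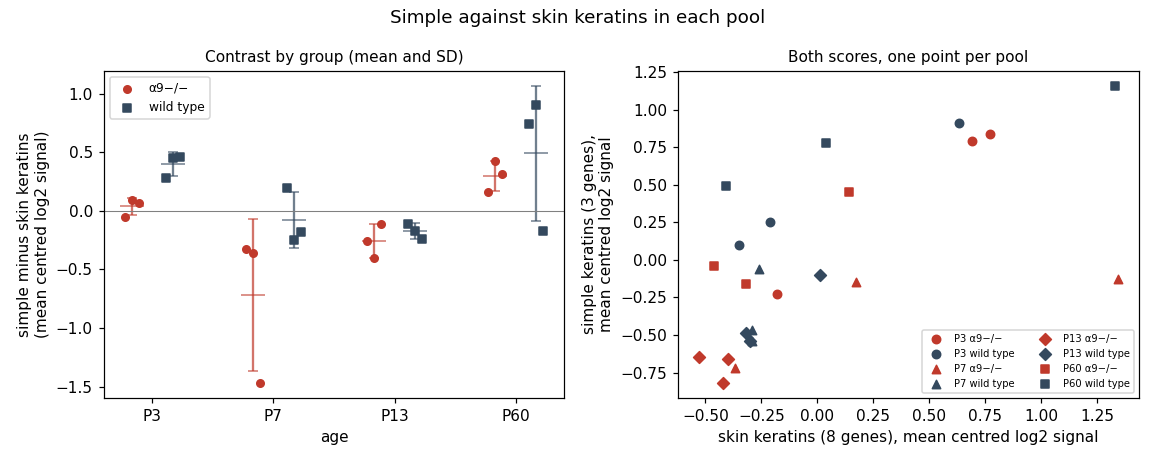
Left, the simple minus skin keratin contrast (y, mean centred log2 signal) by age (x), with 1 point per pool and the mean and SD of 3 pools for α9−/− (left of each pair) and wild type (right). Right, the simple keratin score (y) against the skin keratin score (x) of each pool; P7 α9−/− pool 3 and P60 wild type pool 3 lie at the same skin score, 1.34 and 1.33, with simple scores of −0.13 and 1.16.

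The skin score was highest in P7 α9−/− pool 3 (1.34) and P60 wild type pool 3 (1.33), and the simple score was −0.13 in the first and 1.16 in the second. Both scores were high in the P3 pools α9−/− 2, α9−/− 3 and wild type 1 (simple 0.79, 0.84 and 0.91, skin 0.69, 0.77 and 0.63). In P3 α9−/− pool 3 the skin score came from the basal keratins, with a centred score of 2.09, against −0.03 for the suprabasal ones. Over the 24 arrays they had a Pearson r of 0.66 (Spearman 0.63). At P13 the pools ranged from −0.82 to −0.10 in the simple score and from −0.53 to 0.01 in the skin score.

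The genes most like each score were sought over the 24 arrays. Of the skin score, the 8 genes of highest Pearson r outside the keratins were S100a14 (0.869), Krtdap (0.818), Trim29 (0.812), Crct1 (0.801), Bpifc (0.800), Sdr16c6 (0.789), Sbsn (0.772) and 2310011E23Rik (0.766). Krtdap, a keratinocyte differentiation gene, read 7.67 in P7 α9−/− pool 3 and 8.73 in P60 wild type pool 3, but 4.45 in P3 α9−/− pool 3. Trim29 read 7.62, 7.20 and 7.25 in those 3 pools. Of the simple score, the 8 were Tcea3 (0.922), Selenow (0.909), Wnt9a (0.891), Syne4 (0.889), Prmt2 (0.883), Irgq (0.874), Cbarp (0.870) and Rhbdd2 (0.867). Syne4 encodes nesprin-4, a nuclear envelope protein that links to kinesin in epithelial cells, and ranged over 24 arrays from 7.22 to 8.53 after joint normalization.

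Of 12 known regulators of keratin genes, 4 rose and 0 fell at P60 against P3, against 15.7% and 17.2% of all genes. They were Klf5, which rose by 1.5 ± 0.28 (limma, adjusted p = 0.000351), Trp63, the p63 factor of basal epithelia that also stands in the keratinocyte list, by 0.93 ± 0.32, Grhl1 by 0.65 ± 0.22 and Ovol2 by 0.62 ± 0.19 (adjusted p = 0.0365, 0.0336 and 0.0239). At P60 against P13, 1 rose and 1 fell, against 12.1% and 14.5% of all genes: Klf5 rose by 1.45 ± 0.28 and Klf4 fell by 0.63 ± 0.14 (limma, adjusted p = 0.0008 and 0.00275). In the other steps 1 of the 12 passed each: at P7 against P3 Klf4 rose by 0.53 ± 0.14 (adjusted p = 0.0248), and at P13 against P7 Grhl3 fell by 0.69 ± 0.18 (adjusted p = 0.0149). Of the 11 other intermediate filament genes, 1 rose and 6 fell at P60 against P3, against 15.7% and 17.2% of all genes, with synemin (Synm) up by 1.5 ± 0.13 and the lamins Lmna and Lmnb1 lower by −1.52 ± 0.43 and −0.96 ± 0.23.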

How the data were processed

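The authors used Affymetrix mouse genome arrays with RMA background correction, quantile normalization and a Tukey biweight summary of probes (AffyPLM in R), and deposited log2 signals of 45101 probe sets on 24 arrays. Array medians (6.49 to 6.89) were alike among the arrays of 1 age and unlike across ages, so the normalization appears to have been run for each age. Their limma version is not given here.

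Genotypes were compared within each age on the deposited values with limma 3.58.1 in R 4.3.3, over the 40% of probe sets of highest variance (18041), as in the study's methods. Ages were compared after quantile normalization of all 24 arrays, over all probe sets, as the mean of both genotypes' differences. Calls used a Benjamini-Hochberg adjusted p under 0.05, and also a log2 difference of at least 1.5. Shares of all genes use 1 probe set per gene. The fits were also run on simulated data with values drawn independently for each probe set and array. That setting holds no outlying pools, so it does not bear on them. Scores were made with pandas 2.3.3 and numpy 2.4.6 in Python 3.11.15, and figures with matplotlib 3.10.9.

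Probe sets were named from the platform annotation (34958 with 1 gene); a probe set shared by Krt14 and Krt17 was left out. Krt14, Krt4, Krt42 and Krt76 are represented by probe sets that can cross-hybridize with relatives, and Krt12 and Krt82 by probe sets that can match several transcripts. Named were Krt8, Krt18 and Krt19, the 6 skin keratins of highest mean, up to 10 other keratins called with the largest difference, keratins with an array over 3 log2 units from its group mean (none), up to 4 called members per list, and the 8 genes most like each score; others were chosen after their values were seen. The members and lists were chosen with earlier results of these data known. Each pool was taken as 1 replicate, and precision is limited by the 3 arrays per group. Alternatives covered normalization, filter, array weights, replicate block, probe set and leaving out arrays. Array scans were not used here.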

Additional observations from a re-analysis of the deposited data

How the results depend on the processing

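The count of keratins called between ages (adjusted p under 0.05) depended on the setting. At P7 against P3 (4 called) it was 9 with array weights (8 higher, 1 lower), 0 in wild type pools alone, 0 in α9−/− pools alone, 1 without arrays whose Gapdh 5′ signal was low, 0 without the 3 pools of highest Krt14 signal and 1 to 6 when single pools were left out. At P13 against P7 (2 called) it was 4 on deposited values, 1 on median-centred arrays, 15 with array weights (3 higher, 12 lower), 1 in wild type, 0 in α9−/− and 2 to 3 without single pools. At P60 against P13 (8 called) it was 22 on deposited values, 16 with array weights (7 higher, 9 lower), 4 in wild type, 1 in α9−/− and 6 to 10 without single pools. At P60 against P3 (4 called) it was 7 with array weights (5 higher, 2 lower), 2 in wild type, 1 in α9−/− and 3 to 5 without single pools. Fits on 1 genotype have fewer arrays; the cause of the other shifts was not tested. With the log2 limit of 1.5 as well, array weights gave 1 at P7 against P3 and 2 at P13 against P7 (both lower), and leaving out single pools 0 to 1 there (1 without P7 α9−/− pool 2). At P60 against P13 the probe set of highest variance gave 1 (main 0). At P60 against P3 (1 called) there were 0 on median-centred arrays, 0 in wild type, 2 without the 3 pools of highest Krt14 signal and 1 to 2 without single pools (2 without P60 wild type pool 3).

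Between genotypes, array weights gave 7 keratins at P13, all lower in α9−/− pools, and leaving out single pools 0 to 2 (2 without wild type pool 3); every other alternative run gave 0 at the 4 ages. Krt14 at P3 (0.70) turned to −0.21 without α9−/− pool 3 (−0.21 to 1.43 over single pools left out), Krt77 at P60 (−0.89) to 0.23 without wild type pool 3 (−1.62 to 0.23), with the same values without the 3 pools of highest Krt14 signal, and Krt42 at P60 against P3 (0.57) to −0.18 with its probe set of highest variance. With hair and wound keratins added, the mean contrast was 0.35 in P3 α9−/− and 0.50 in P3 wild type, −0.37 in P7 wild type, and −0.51 in P13 α9−/− and −0.36 in P13 wild type pools; with the median over genes it was 0.21 in P3 α9−/− and 0.26 in P3 wild type pools. As described, these were 0.04, 0.40, −0.08, −0.26 and −0.17.

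Replicate numbers did not pair the pools at every age: deviations of same-numbered pools correlated from −0.62 to 0.59, over 0.1 in 7 of 12 pairs. For pools 1, 2 and 3 they were −0.49, −0.62 and 0.45 at P3, and 0.12, 0.59 and −0.05 at P7. At P13 they were 0.35, 0.15 and 0.03, and at P60 0.15, −0.07 and 0.46. A shared preparation of same-numbered pools was not tested. With the replicate block 0 keratins were called between genotypes at each age, and 6, 2, 8 and 3 between ages. Of the keratins named, Krt75 at P60 against P13 and Krt24 at P60 against P3 lost their call under it (adjusted p = 0.0505 and 0.0537).

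Most keratins had a signal below the array's median, where arrays resolve differences poorly, and 3 pools per group limit the precision.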
